A study of Mus musculus with 20 samples.

Results

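Annotated piRNAs were examined in small RNA libraries of cauda epididymosomes, the extracellular vesicles found in the fluid of the distal epididymis. The members were the rows named as Mus musculus piRNAs (names beginning mmu_piR_) whose count averaged 10 or more over the 10 libraries of the table labelled with size selection. This rule kept 81 of 22448 piRNA rows in that table, which held 72034 RNA features in all. The 81 rows were also followed in the table labelled without size selection, which held 16370 piRNA rows among 59035 features. Since counts in the first table chose the members, their levels there are given as a description.

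The MSUS group held 5 male mice, animals 2, 4, 6, 8 and 14, whose litters had been separated from the dam at unpredictable times for 3 h per day over the first 14 days of life while the dam was also stressed by forced swim or restraint. The Control group held 5 males, animals 3, 5, 7, 9 and 11, from litters left alone. All 10 animals were 9 months old, sperm had been pelleted before the vesicles were collected by ultracentrifugation, and each library was sequenced in 2 runs, with and without a size selection meant to enrich miRNAs. The sources used here do not say whether any animals were littermates, and p-values cover only the spread between these 10 animals.

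PIWI-interacting RNAs are small RNAs of the germ line, longer than miRNAs, that guide PIWI proteins. In the mouse testis they silence transposons in fetal germ cells, and in meiotic cells a second population is cut in great numbers from long single-stranded precursor transcripts of a limited set of genomic clusters. Databases of annotated piRNAs were built largely from testis reads of matching size, so that some entries lie outside any cluster and overlap other abundant small RNAs.

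Totals per library lay between 1872084 and 3647956 counts with size selection and between 215231 and 871461 counts without. Mature miRNAs took 10.9 to 17.02% of counts in the first table and 52.4 to 72.2% in the second, against the purpose stated for the selection, so "with" and "without" here repeat the labels and no more. In the table with size selection 3 libraries stood apart by a low share of tRNA counts, 23.8% in MSUS 14, 25.3% in Control 11 and 14.5% in Control 9, against 34.6 to 66.0% in the other 7 libraries. For the labelled tissue, 14 of 16 listed epididymal epithelium genes had a row in that table, and Lcn9 and Spint4 had none. Of the 14, 7 passed the filter on low counts, and Lcn8, Adam28 and Defb21 averaged under 1 count. The summed level of the list was given as scaled CPM, counts relative to the library total after scaling by the trimmed mean of M-values (TMM). It was 2377 to 3345 in MSUS and 2535 to 3613 in Control libraries. Most of it was Crisp1, which averaged 1934 in MSUS and 1988 in Control libraries.

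The 81 piRNAs fell into 2 kinds by where they lay. For each member, the other piRNA rows of either table that start within 50 kb to each side were counted, from the coordinates in the row names. A total of 27 members had 0 to 4 such neighbours and are called solitary, and 54 members had 36 to 1828 and are called clustered. No member had a number in between, and windows of 25 kb and 100 kb gave the same 27 solitary members; the dividing value of 10 neighbours was chosen after these numbers were seen. Among all 24829 piRNA rows of both tables, 1139 were solitary and 23690 were clustered. The solitary kind thus made up 27 of the 81 members and 4.59% of all rows. The sources used here name no genome build for the coordinates in the row names. Taken as GRCm38, the build named in the submitters' processing notes, only 1 of the 81 members overlapped an annotated small RNA gene, so no gene is assigned to a member from its position.

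**Figure D1:**
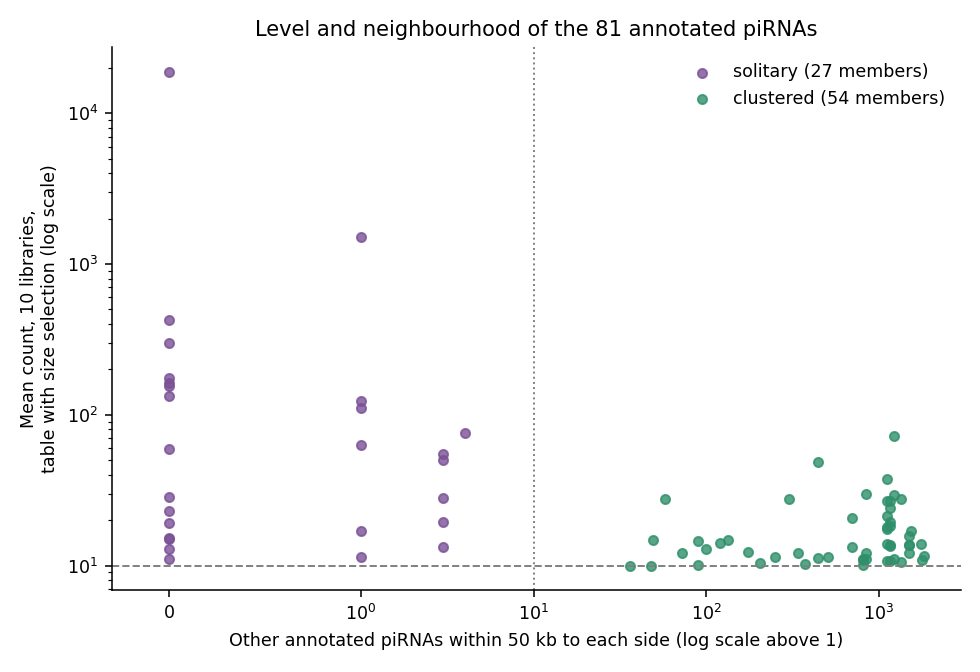
Each point is one of the 81 annotated piRNAs. The horizontal axis gives the number of other annotated piRNAs within 50 kb to each side, on a log scale above 1, and the vertical axis the mean count over the 10 libraries of the table with size selection, on a log scale. The dotted line marks 10 neighbours and the dashed line the mean count of 10 that chose the members. Solitary members reach a mean count of 18745 and clustered members 71.9.

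Solitary and clustered members differed in level and in annotated length. Mean counts in the table with size selection ran from 11 to 18745 with a median of 54.8 in solitary members, and from 10.0 to 71.9 with a median of 13.6 in clustered members. The 10 most abundant members were all solitary. Of the clustered members, 52 of 54 were 29 to 32 nt long, a length typical of the pachytene piRNAs of the adult mouse testis, against 13 of 27 solitary members. Most annotated rows had this length, 76.6% of all piRNA rows, 77.3% of clustered rows and 63.6% of solitary rows. Clustered members were 26 to 32 nt long, with a median of 30 nt, and solitary members 19 to 32 nt, with a median of 28 nt.

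Clustered members were often not distinct entries. On the same strand, 38 of the 54 clustered members overlapped another piRNA row, against 1 of the 27 solitary members. Another member was overlapped by 15 clustered and by 0 solitary members. Counts that were not whole numbers occurred in 33 clustered and 0 solitary members. Overlapping members can share reads and are uncertain as single entries.

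The clustered members came from 28 places on 15 chromosomes, when members within 100 kb were joined. Of these places, 12 held at least 2 members, 38 members in all. The place with the most members was chr6:127760368-127783397, in the coordinates of the row names, with 7 members. In and around it lay 1167 piRNA rows, 886 of them on the plus strand. Among the members, mmu_piR_000714, mmu_piR_023970 and mmu_piR_010126 overlapped one another, as did mmu_piR_036984 and mmu_piR_016875. The summed count of the 7 members was 127, 128, 125, 182 and 98.0 in MSUS 2, 4, 6, 8 and 14, against 126, 130, 116, 92.4 and 139 in Control 3, 5, 7, 9 and 11, in the table with size selection. MSUS 8 was highest, and the groups overlapped.

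Of the 28 places, 14 were annotated on 1 strand only, as the precursor transcripts of pachytene piRNAs are known to be read from 1 strand at a time. At chr2:92379706-92379736, around mmu_piR_034639, all 1340 piRNA rows were on the plus strand. At chr5:150072486-150092211, around mmu_piR_008794, mmu_piR_010485 and mmu_piR_026822, all 809 rows were on the minus strand. In and around chr17:27019910-27085035, with 5 members, 941 rows were on the plus and 888 on the minus strand.

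The rule's threshold fell among clustered rows. Just inside it lay mmu_piR_026822 with a mean count of 10.1, and mmu_piR_033192 and mmu_piR_033780 with 10.0 each. Just outside lay mmu_piR_024946 with 9.63 and mmu_piR_005789 with 9.51, both clustered, and mmu_piR_000619 with 9.5, a solitary row with 4 neighbours. A minimum of 5 would have given 209 members, 177 of them clustered, and a minimum of 20 would have given 31 members, 13 of them clustered.

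A single entry, mmu_piR_000935, held most of the members' counts. It is annotated at chr6:47717737-47717766 on the minus strand, is 30 nt long and has no other piRNA row within 50 kb. In the table with size selection it had 30949, 11367, 14011, 11023 and 26964 counts in MSUS 2, 4, 6, 8 and 14, against 10387, 10661, 10864, 25570 and 35657 counts in Control 3, 5, 7, 9 and 11. Counts were high in MSUS 2, MSUS 14, Control 9 and Control 11, and the groups overlapped. Those libraries also had the largest totals, 2966931, 2896734, 3566793 and 3647956 counts, in that order.

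This entry took 39.5 to 65.7% of all piRNA counts in MSUS libraries and 41.2 to 64.1% in Control libraries of that table. In the table without size selection it took 10.2 to 21.4% in MSUS and 8.12 to 22.6% in Control libraries. All piRNA rows together took 1.04 to 1.61% of library counts in MSUS and 0.937 to 1.53% in Control libraries with size selection, and 1.44 to 1.90% in MSUS and 1.42 to 1.82% in Control libraries without it. Counting error alone gave 95% Wilson intervals of at most 0.0167 percentage points to each side with size selection and 0.0568 without; reads carry no molecular identifiers in these tables, so the intervals cover counting error only.

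After mmu_piR_000935, levels dropped steeply. The second member, mmu_piR_027673 (22 nt, chr11:106317081-106317102, plus strand), averaged 1503 counts, and mmu_piR_032974 (28 nt, chr4:130021751-130021778, plus strand) averaged 426. The fourth, mmu_piR_011982 (22 nt, chr4:118904156-118904177, minus strand), averaged 300 counts. The next 6 were mmu_piR_030130 with 176, mmu_piR_003770 with 163, mmu_piR_034793 with 154, mmu_piR_004086 with 134, mmu_piR_012107 with 123 and mmu_piR_000802 with 112. Their ranges over the 10 libraries overlapped from each of these 6 to the next, so their order is not firm.

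**Figure D2:**
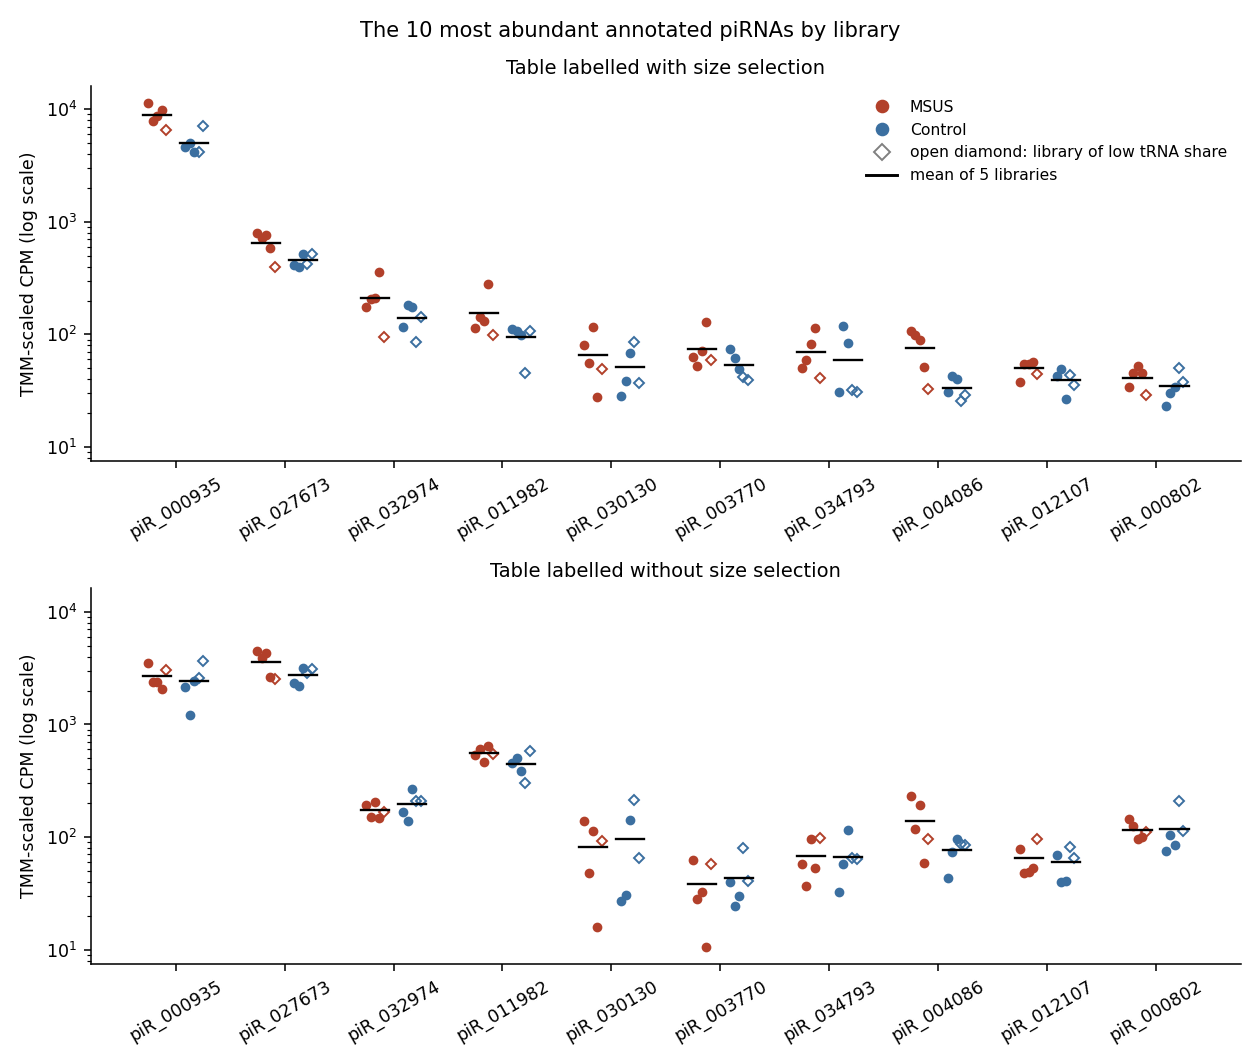
Levels of the 10 most abundant annotated piRNAs in scaled CPM, on a log scale, in the table with size selection (top) and without it (bottom). Each point is a library, MSUS to the left of Control, and the line is the mean of 5 libraries. Open diamonds are MSUS 14, Control 9 and Control 11, whose tRNA share was low with size selection. In the top panel mmu_piR_000935 averages 8878 scaled CPM in MSUS and 5035 in Control libraries; in the bottom panel mmu_piR_027673 is the highest, at 3565 in MSUS and 2732 in Control libraries.

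Several solitary members lay side by side. The 22-nt mmu_piR_027673 and the 30-nt mmu_piR_000580 lay on the same strand of chr11, with 23 bases between them. On chr19, mmu_piR_012107 and mmu_piR_025007 lay on the same strand 513 bases apart, and on chr11 mmu_piR_006854 and mmu_piR_003861 lay on the same strand 84 bases apart. On chr4, mmu_piR_015668 and mmu_piR_006563 lay on opposite strands 35812 bases apart. Each of these rows was tested and counted as a member of its own.

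For 5 of the 10 most abundant members a snoRNA (small nucleolar RNA, a class that guides chemical modification of ribosomal RNA) was among the most alike profiles. Likeness was the Pearson correlation of log2(CPM + 1) over the 10 libraries of the table with size selection, among 1535 features other than piRNAs with a mean count of 100 or more. The 3 highest are named for each member as a description, with no p-value, because they were picked as the highest of many and share the libraries' depth and composition. Of the 30 features named, 11 were snoRNAs, a class that made up 7.49% of the 1535. For mmu_piR_027673 these were the snoRNAs Snord71, Gm25835 and Gm23711, with r of 0.98, 0.98 and 0.97 and Spearman's rho of 0.95, 0.98 and 0.92. In the other table, with the same animals, the r for these were 0.88, 0.95 and 0.76.

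For mmu_piR_030130 the nearest profiles were the snoRNAs Gm26330 and Snord23 and the small nuclear RNA Gm26110, with r of 0.98, 0.97 and 0.96, and 0.91, 0.83 and 0.76 in the other table. For mmu_piR_000935 they were the snoRNAs Gm25296 and Gm23008, with r of 0.91 each, and a retained-intron transcript of Ppan, a ribosome biogenesis gene, with 0.88; in the other table r was 0.51, 0.86 and 0.33. All 3 of mmu_piR_004086 were snoRNAs, Snord55, Gm23246 and Gm24357, with r of 0.85, 0.82 and 0.82, and 0.60, 0.68 and 0.54 in the other table.

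The 22-nt mmu_piR_011982 was nearest to miRNAs. These were mmu-miR-743b-3p, mmu-miR-743a-3p and mmu-miR-465c-5p, with r of 0.95, 0.94 and 0.91, and 0.76, 0.45 and 0.76 in the other table; both miRNA families lie in an X-linked cluster expressed in the testis. For mmu_piR_000802 they were Snord13, Gm37357 and the lincRNA Gm26905, with r of 0.93, 0.93 and 0.92, and 0.81, 0.84 and 0.75 in the other table. For mmu_piR_012107 they were the protein-coding Rnf11 and Bcl9l and the small Cajal body RNA Gm23751, with r of 0.93, 0.91 and 0.91, and 0.21, 0.77 and 0.69 in the other table.

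Weaker likeness was found for the other 3 of the 10. For mmu_piR_032974 the highest were the mitochondrial tRNAs mt-Tv and mt-Te and Gm24514, with r of 0.58, 0.54 and 0.53, and -0.30, 0.19 and 0.39 in the other table. For mmu_piR_034793 they were mt-Te, Rnu7 and Grcc10, with r of 0.77, 0.75 and 0.75, and all 3 were negative in the other table. For mmu_piR_003770 they were mmu-miR-150-5p, Gm24379 and Gm24372, with r of 0.81, 0.80 and 0.79, and 0.52, 0.62 and 0.73 in the other table.

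The share of piRNA counts held by clustered rows differed between libraries. Clustered piRNA rows, members and non-members together, took 23.6 to 51.9% of piRNA counts in MSUS and 21.9 to 47.8% in Control libraries with size selection. The lowest shares were in Control 9 with 21.9%, MSUS 14 with 23.6%, MSUS 2 with 24.98% and Control 11 with 25.1%. The highest were in MSUS 8 with 51.9% and Control 5 with 47.8%. The 4 lowest libraries include the 3 of low tRNA share, and the part of the tRNA share in this was not tested.

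The same animals stood at the ends in the other table. There Control 9 was lowest with 36.3%, and MSUS 8 and Control 5 were highest with 66.7% and 65.5%. The tables come from repeated sequencing of the same libraries, so this is a repeat of the measurement and not of the animal. Between MSUS and Control libraries the ranges overlapped in both tables.

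**Figure D3:**
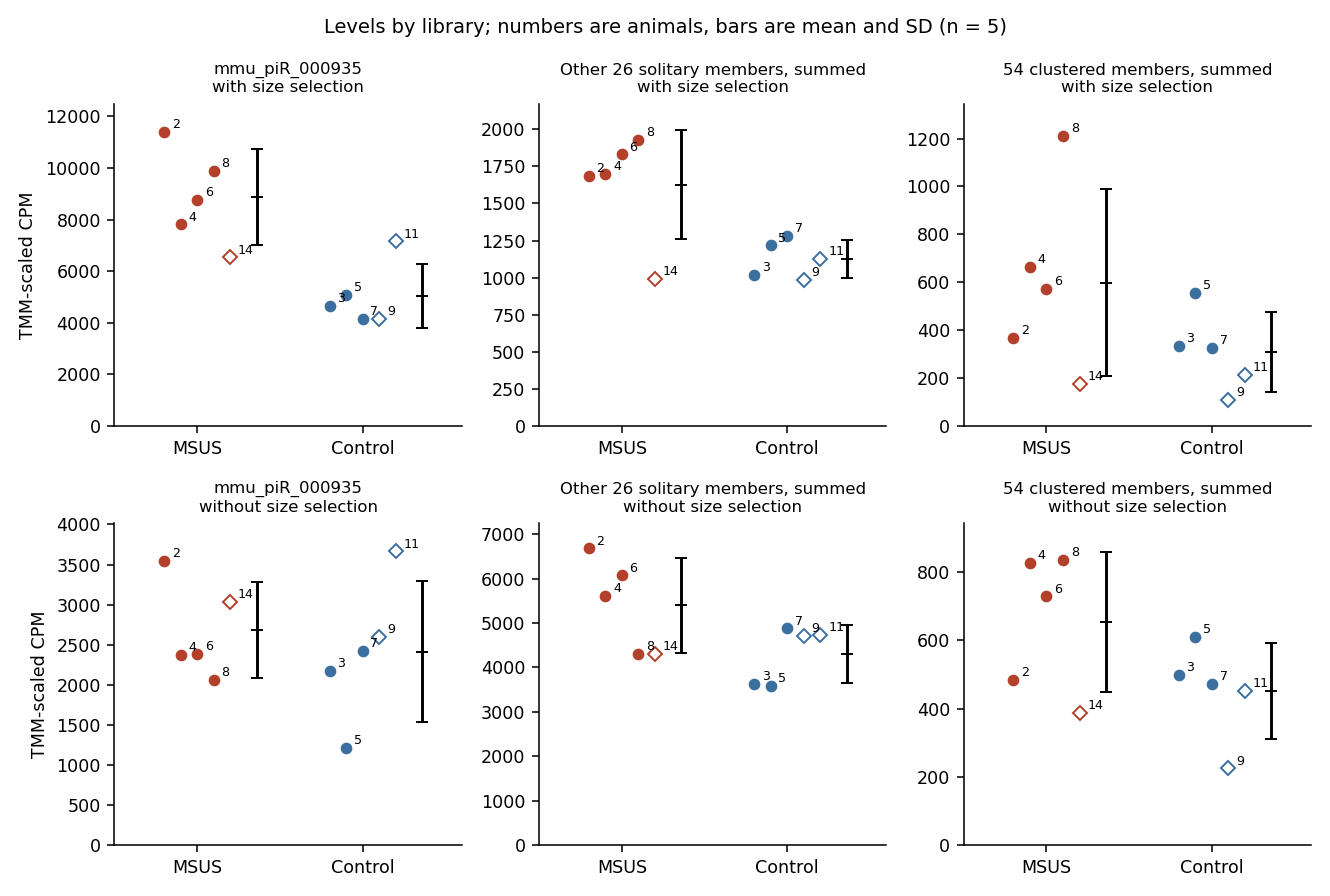
Levels of mmu_piR_000935 (left), of the other 26 solitary members summed (middle) and of the 54 clustered members summed (right) in scaled CPM, with size selection (top) and without (bottom). Points are libraries numbered by animal, MSUS left of Control, and bars are mean and SD of 5 libraries. Open diamonds are the animals whose libraries had a low tRNA share with size selection. Clustered members range from 177 to 1213 scaled CPM in MSUS and from 108 to 557 in Control libraries with size selection.

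Whether early-life stress of the litter changed these piRNAs in adult vesicles was tested within each table over all features, with the edgeR quasi-likelihood test and Benjamini-Hochberg adjustment, and members alone are printed. With size selection, 79 of the 81 members passed the filter on low counts; mmu_piR_023459 and mmu_piR_033192, both clustered, did not. No member passed an adjusted p of 0.05, and neither did any of the 10998 features tested (0.0%). The smallest adjusted p among members was 0.837. At an unadjusted p under 0.05, 11 members were higher in MSUS, 13.9% of those tested, against 3.45% of all features, and 0 members were lower, against 2.37% of all features. DESeq2 called 33 features (0.3%) and limma-voom 0; of the members, DESeq2 called mmu_piR_000935 alone, with a log2 fold change of 0.82 and an adjusted p of 0.0112. Without the filter on low counts edgeR called 48 of 61275 features (0.0783%), 4 of them members, mmu_piR_004086, mmu_piR_003861, mmu_piR_008441 and mmu_piR_012765, all higher in MSUS.

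Scaled to the bulk of features, members stood mostly higher in MSUS than in Control libraries. The log2 fold change was positive in 78 of the 79 members, against 49.6% of all features, and its median was 0.80 over members and -0.00 over all features. With library size as the only scaling, the median of all features fell to -0.57 and 51 of the 79 members were positive, with a median of 0.13. Against the all-feature median of the same scaling, 78 members lay above it under either scaling. Directions below are relative to the bulk of features, and a member's share of the whole library can point the other way.

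The shift came with large differences in scaling factors between libraries. The factor was 0.917, 0.728, 0.811, 0.417 and 1.43 in MSUS 2, 4, 6, 8 and 14. In Control 3, 5, 7, 9 and 11 it was 1.13, 1.13, 1.04, 1.73 and 1.37. MSUS 8 was the lowest and Control 9 the highest. All MSUS factors but that of MSUS 14 lay below every Control factor, so the scaling largely followed the groups. tRNA took 44.5 ± 15.5% of counts in MSUS and 31.2 ± 11.5% in Control libraries (SD, n = 5 each), and protein-coding features took 15.4 ± 6.42% and 23.7 ± 5.02%, in MSUS and in Control libraries; their part in the fold changes was not tested. Members at an unadjusted p under 0.05 and higher in MSUS numbered 52 of 81 tested without MSUS 14, against 612 of 11059 features. They numbered 23 of 79 without Control 5, against 416 of 11638 features. Without MSUS 8 they numbered 7 of 79, against 346 of 11663 features. Without Control 9 they numbered 6 of 81, against 460 of 10950 features. Without MSUS 14, Control 9 and Control 11 they numbered 20 of 75, against 569 of 9015 features, with a median log2 fold change of 0.64. There 1 member was lower, against 315 features. The members' median was 0.49 without MSUS 8 and 1.14 without MSUS 14.

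**Figure D4:**
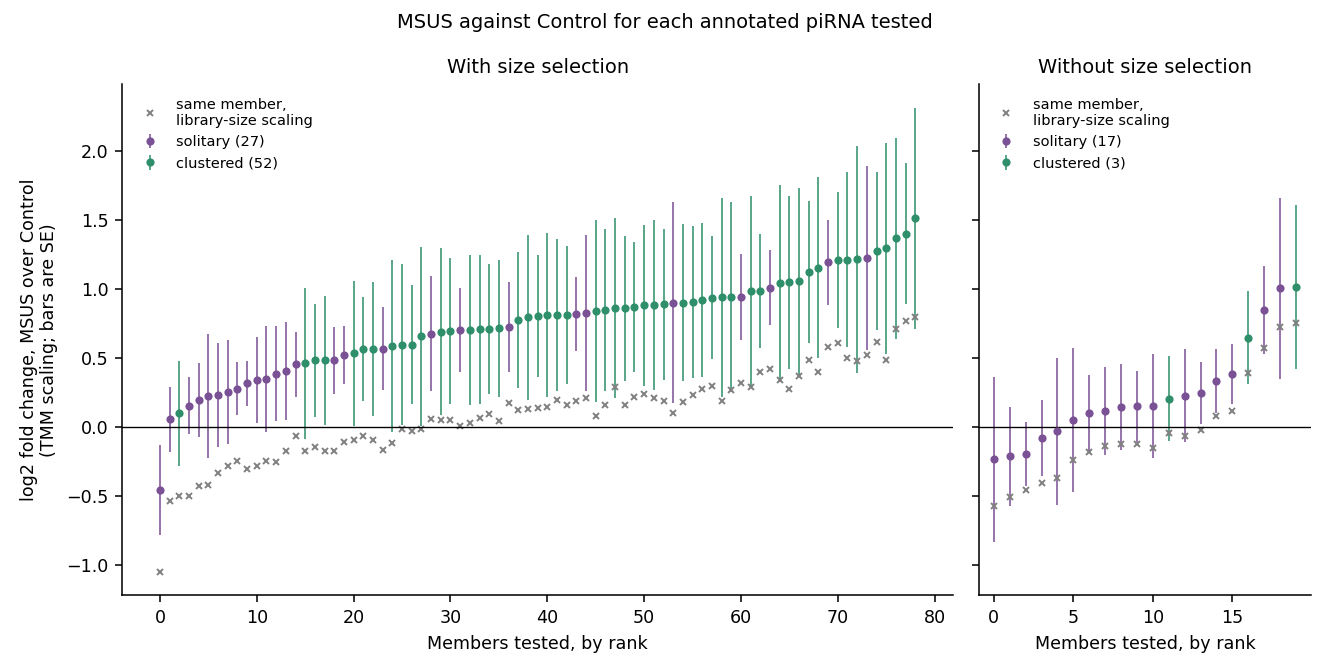
log2 fold change of MSUS over Control for each annotated piRNA tested, in rank order, with size selection (left, 79 members) and without (right, 20 members). Points are the scaled estimates with SE bars, coloured by kind, and crosses are the same members when libraries are scaled by their totals only. With size selection 78 of 79 points lie above 0, and 51 of 79 crosses do.

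By their medians, clustered members had larger fold changes than solitary ones. The median log2 fold change was 0.86 over 52 clustered members tested and 0.45 over 27 solitary members; with library-size scaling these were 0.18 and -0.18, against -0.57 over all features. Solitary members supplied 7 of the 11 at an unadjusted p under 0.05, and clustered members 4. The gap was small without Control 9, with medians of 0.53 clustered and 0.50 solitary, and without MSUS 14, Control 9 and Control 11, with 0.64 and 0.59. Without MSUS 14 alone they were 1.25 and 0.56. The difference between clustered and solitary members was not tested. The summed level of the clustered members was 369, 662, 573, 1213 and 177 scaled CPM in MSUS 2, 4, 6, 8 and 14, against 336, 557, 325, 108 and 213 in Control 3, 5, 7, 9 and 11. MSUS 8 was above every other library, MSUS 14 was below every Control library except Control 9, and the groups overlapped.

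The most abundant member, mmu_piR_000935, had 11387, 7808, 8772, 9893 and 6530 scaled CPM in MSUS 2, 4, 6, 8 and 14, against 4664, 5064, 4139, 4157 and 7152 scaled CPM in Control 3, 5, 7, 9 and 11. Every MSUS library except MSUS 14 lay above every Control library, and MSUS 14 lay below Control 11. The means were 8878 ± 1870 in MSUS and 5035 ± 1245 in Control libraries (SD, n = 5 each), a log2 fold change of 0.82 with an SE of 0.27 and an edgeR adjusted p of 0.837. As a share of all counts it took 0.733 ± 0.258% in MSUS and 0.644 ± 0.214% in Control libraries (SD, n = 5 each), a difference smaller than either SD.

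In the table without size selection the same entry had 3548, 2378, 2388, 2059 and 3033 scaled CPM in MSUS 2, 4, 6, 8 and 14, against 2170, 1216, 2420, 2601 and 3664 in Control 3, 5, 7, 9 and 11. The groups overlapped through most of their range. The log2 fold change was 0.15 with an SE of 0.26 and an edgeR adjusted p of 0.846. It was -0.04 without Control 5 and -0.13 with library-size scaling.

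The largest fold change among the 10 most abundant members was that of mmu_piR_004086, a 29-nt entry at chr2:129969457-129969485 on the plus strand with no neighbour within 50 kb. It had 108, 98.9, 89.5, 51.2 and 32.5 scaled CPM in MSUS 2, 4, 6, 8 and 14, against 30.5, 42.8, 40.0, 25.5 and 29.1 in Control 3, 5, 7, 9 and 11. All MSUS libraries but MSUS 14 lay above the Control libraries, and MSUS 14 lay among them. The log2 fold change was 1.19 with an SE of 0.31 and an edgeR adjusted p of 0.837.

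It was also the only member at an unadjusted p under 0.05 without size selection. There it had 233, 119, 194, 58.5 and 95.3 scaled CPM in MSUS 2, 4, 6, 8 and 14, against 42.9, 73.0, 96.9, 86.9 and 85.1 in Control 3, 5, 7, 9 and 11. MSUS 2, 4 and 6 were above every Control library and MSUS 8 and 14 were not. The log2 fold change was 0.85 with an SE of 0.32 and an edgeR adjusted p of 0.563, and it was positive under every alternative tried in both tables.

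A single member, mmu_piR_003861, had groups that did not overlap with size selection; 0.391% of all features were fully separated in this direction and 0.482% in the other, in which no member was. This 30-nt entry at chr11:101421069-101421098 had 12.1, 26.8, 14.4, 16.2 and 9.45 scaled CPM in MSUS 2, 4, 6, 8 and 14, against 7.18, 9.03, 7.24, 4.88 and 8.83 in Control 3, 5, 7, 9 and 11. The lowest MSUS value lay just above the highest Control value. The log2 fold change was 1.01 with an SE of 0.27 and an edgeR adjusted p of 0.837. It did not pass the filter on low counts in the other table.

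A further 2 members were among the 5 smallest p-values of positive direction. The clustered mmu_piR_008441, a 32-nt entry on chr5, had 26.03 scaled CPM in MSUS 8 and 3.39 to 9.62 in the other MSUS libraries, against 2.44 to 4.19 in Control libraries. Its log2 fold change was 1.40 with an SE of 0.51, and it was 0.90 without MSUS 8. The solitary mmu_piR_025007 on chr19, near mmu_piR_012107, had 4.78 to 6.30 scaled CPM in MSUS and 1.79 to 5.71 in Control libraries. The only member with a negative log2 fold change was the solitary mmu_piR_005077 on chr13, with 2.42 to 6.26 scaled CPM in MSUS and 3.01 to 8.08 in Control libraries, a log2 fold change of -0.45 with an SE of 0.33 and an edgeR adjusted p of 0.906. It was -0.19 without MSUS 14 and -0.29 without Control 7.

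The remaining abundant members showed smaller differences. mmu_piR_027673 had 797, 717, 768, 584 and 398 scaled CPM in MSUS 2, 4, 6, 8 and 14, against 416, 394, 523, 425 and 514 in Control 3, 5, 7, 9 and 11, with a log2 fold change of 0.52 and an SE of 0.21. All MSUS libraries but MSUS 14 lay above the Control libraries. mmu_piR_011982 averaged 154 ± 71.7 scaled CPM in MSUS and 94.0 ± 27.8 in Control libraries (SD, n = 5 each), a difference smaller than the larger SD. The log2 fold changes of the other 6 ran from 0.16 for mmu_piR_000802 to 0.57 for mmu_piR_032974, which was at 0.29 without MSUS 8. With library-size scaling mmu_piR_027673 and these 6 were negative, from -0.11 to -0.50, while mmu_piR_011982 was at 0.01.

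Without size selection, 20 of the 81 members passed the filter, 17 solitary and 3 clustered. None passed an adjusted p of 0.05 in the edgeR test, and neither did any of the 1075 features (0.0%); DESeq2 and limma-voom also called 0. At an unadjusted p under 0.05, 1 member was higher in MSUS, 5.0% of those tested against 3.81% of all features, and 0 were lower, against 4.0%. No member had groups that did not overlap, against 0.186% of features higher and 1.3% lower in MSUS. The log2 fold change was positive in 15 of 20 members, against 50.6% of all features, with a median of 0.15 over members and 0.01 over all features; with library-size scaling 6 of 20 were positive, with medians of -0.13 and -0.26.

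Next to mmu_piR_004086, the smallest p-values in that table belonged to mmu_piR_020107 and mmu_piR_026888, both clustered, with log2 fold changes of 0.65 and 1.01 and SE of 0.34 and 0.59, and to mmu_piR_027673 with 0.38 and 0.22. mmu_piR_018323 followed with a log2 fold change of 1.00 and an SE of 0.66. Single libraries moved these values: mmu_piR_020107 was at 0.40 and mmu_piR_026888 at 0.59 without Control 9, and mmu_piR_018323 at 0.64 without MSUS 8. The 5 with negative values were mmu_piR_032974 at -0.20, mmu_piR_003770 at -0.21, mmu_piR_030130 at -0.23, mmu_piR_000802 at -0.08 and mmu_piR_015668 at -0.03, each smaller than its SE. Depth limited this table: 52 of the 81 members were above 0 in all 10 libraries, and 22 averaged 10 or more, 17 of them solitary.

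The difference of the MSUS effect between the 2 tables was tested as an interaction over 8109 features, of which 65 were members. This fit had no animal term, so the 2 measurements of an animal were treated as independent. No member and no feature passed an adjusted p of 0.05 in the edgeR test (0.0%). At an unadjusted p under 0.05 there was 1 member, 1.54% of those tested against 2.77% of all features (0.851% positive and 1.92% negative). This was mmu_piR_002142, a solitary 27-nt entry on chr11, for which the log2 fold change without size selection minus that with it was -1.12 with an SE of 0.54. It averaged 10.9 ± 3.02 scaled CPM in MSUS and 8.51 ± 1.88 in Control libraries with size selection, and 9.44 ± 4.08 in MSUS and 17.5 ± 14.4 in Control libraries without (SD, n = 5 each). Without size selection it had 37 counts in Control 9 and 1 to 9 in the other libraries, and it did not pass the filter there. With Control 9 left out of the interaction fit, 0 members were lower at an unadjusted p under 0.05, against 138 of 8077 features. For mmu_piR_000935 the difference was -0.64 with an SE of 0.41. With the animal as a replicate block, the unadjusted edgeR p was under 0.05 in 6 of the 65 members, all negative. Of all 8109 features, 191 were negative at this p, and 3.4% passed it in either direction. The 6 were mmu_piR_036984, mmu_piR_014566, mmu_piR_016875, mmu_piR_002142, mmu_piR_012765 and mmu_piR_015252. Of these, mmu_piR_036984 and mmu_piR_016875 overlapped on the same strand and can share reads. Again none passed the adjusted threshold.

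Members of short annotated length took a larger share without size selection. Relative to all counts, the median log2 ratio of mean CPM, without over with size selection, was 2.49 for the 3 members of 17 to 23 nt, 1.67 for the 4 of 24 to 26 nt, 0.54 for the 9 of 27 to 28 nt and 0.38 for the 65 of 29 to 32 nt. The tables were normalized separately, and these ratios are a description that refers to the labels. The level with size selection, by which each ratio is divided, also chose the members, which can lower the ratios of members near the minimum. Length also went with kind. All 3 members of 17 to 23 nt were solitary, and 52 of the 65 of 29 to 32 nt were clustered. The part of length alone was not tested. Apart from mmu_piR_000935, piRNA rows of 17 to 23 nt took a median of 27.5% of piRNA counts without and 12.3% with size selection. Most of this was mmu_piR_027673, with a mean count of 1467 without and 1503 with size selection, and mmu_piR_011982, with 233 and 300. These shares therefore describe those members and not short piRNA rows in general.

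Within the long class the ratios spread from -1.69 to 2.38. The lowest ratios were those of mmu_piR_008794 on chr5 at -1.69, and of mmu_piR_023970 and mmu_piR_000714 on chr6 at -1.58 and -1.48, all 30 nt long and clustered. The highest were those of mmu_piR_018323 (26 nt) at 2.67, and of mmu_piR_037320 (19 nt) and mmu_piR_027673 (22 nt) at 2.49 each, all solitary. The most abundant entry had a ratio of -1.42, so that mmu_piR_000935, with 6883 CPM with size selection, had 2578 CPM without, below the 3133 CPM of mmu_piR_027673 there.

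**Figure D5:**
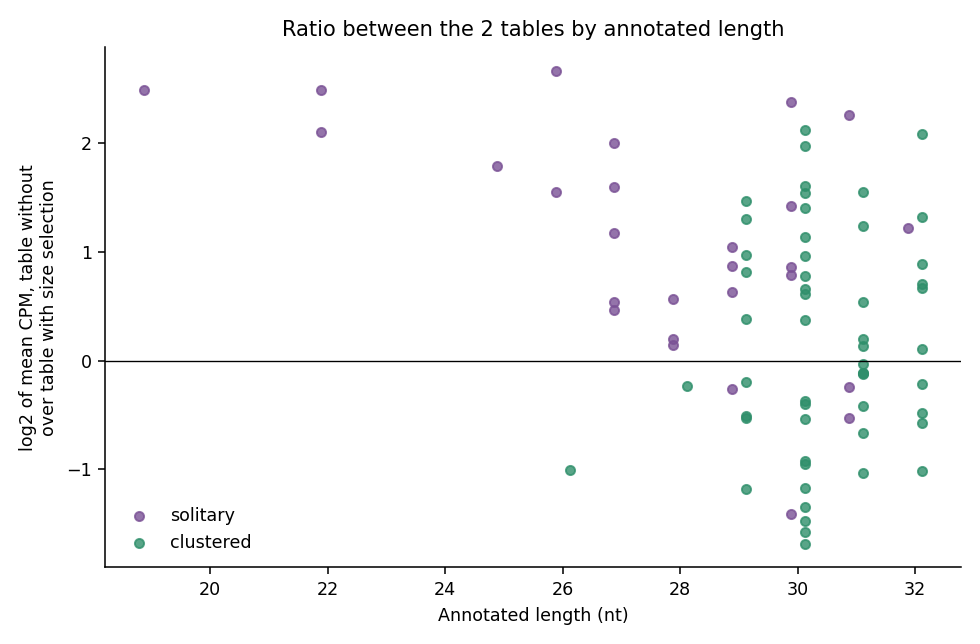
log2 ratio of mean CPM without over with size selection for each of the 81 annotated piRNAs, by annotated length in nt and coloured by kind. The 3 members of 17 to 23 nt lie between 2.11 and 2.49, while members of 29 to 32 nt spread from -1.69 to 2.38.

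Fragments of the messenger RNAs for the piRNA machinery were scarce. Of 35 listed gene names, 29 had a row with size selection, and 13 of these averaged under 1 count. Piwil1, the PIWI protein of meiotic and postmeiotic male germ cells, averaged 1.30 counts, and Piwil2, active from fetal germ cells onward, 2.70. The 6 with the highest mean counts were Tdrd7, a tudor protein of germ granules, with 47.5, Tdrd3, a tudor protein not restricted to germ cells, with 26.2, Tdrkh, a mitochondrial tudor protein needed for piRNA trimming, with 15.9, Exd1, a piRNA biogenesis factor, with 14.0, Tdrd6, of the chromatoid body of spermatids, with 12.3, and Piwil4, the nuclear PIWI protein of fetal germ cells, with 11.3.

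The first 5 of these passed the filter and all had negative log2 fold changes, -0.28 for Tdrd7 with an SE of 0.14, -0.01 for Tdrd3, -0.17 for Tdrkh, -0.35 for Exd1 with an SE of 0.23 and -0.07 for Tdrd6. The median was -0.17, and none passed the edgeR adjusted p of 0.05. Their summed level over the list was 45.5 to 60.9 scaled CPM in MSUS and 53.3 to 62.9 in Control libraries. In the table without size selection 22 of the 35 names had a row and none passed the filter.

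Markers of other cell types were measured in the same libraries. With size selection, all 13 tested of 16 sperm and spermatid genes had positive log2 fold changes, with a median of 0.50, or -0.13 with library-size scaling, when none was positive. None of them passed the edgeR adjusted p of 0.05. Their summed level was 384 to 598 scaled CPM in MSUS and 272 to 421 in Control libraries, and Prm3 averaged under 1 count. Of 8 spermatocyte genes only 1, Hspa2, passed the filter, with a log2 fold change of 0.51. The sum over this list was 15.7 to 21.3 scaled CPM in MSUS and 10.5 to 17.3 in Control libraries. Most of that sum was Hspa2, so the sum and the fold change describe this gene and not spermatocyte genes as a group. Sycp1, Sycp3, Tex101, Spo11 and Sycp2 averaged under 1 count, and Piwil1 stands in this list and in the piRNA list.

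The medians of the other lists were 0.37 for muscle and stroma (10 of 11 positive), 0.18 for blood cells (4 of 4 positive) and -0.04 for epididymal epithelium (1 of 7 positive). With library-size scaling these were -0.15 (5 of 11 positive), -0.38 (0 of 4) and -0.63 (0 of 7), in the same order of lists. Summed muscle and stroma genes had 427 to 1025 scaled CPM in MSUS and 332 to 689 in Control libraries, and blood cell genes 119 to 181 in MSUS and 95.2 to 162 in Control libraries. Without size selection the sperm and spermatid sum was 258 to 352 in MSUS and 201 to 315 in Control libraries, with 3 genes tested and a median of 0.17. The medians there were 0.13 over 2 muscle and stroma genes, -0.26 for 1 blood cell gene and -0.37 over 4 epididymal epithelium genes, and no spermatocyte gene was tested. The part of these cells in the piRNA levels was not tested. Fewer vesicles or cells of a source and less RNA from each cannot be told apart in these libraries.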

How the data were processed

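Small RNA of cauda epididymosomes was sequenced from 5 MSUS and 5 Control males in 2 runs, giving 20 samples; groups and animal numbers come from the sample titles. The deposited tables hold estimated counts per RNA feature, many not whole; the authors' deposited values are not otherwise scaled as far as their totals show. GRCm38 is the build, and STAR and edgeR are tools, named per the submitters' processing notes; the sources used here do not describe how reads were assigned to features. Library totals were 1872084 to 3647956 counts with size selection and 215231 to 871461 without, which limits rare rows in the second table.

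Estimated counts were rounded, features kept by filterByExpr (minimum count 10), scaled by TMM, and tested over the whole table with edgeR 4.0.16 (R 4.3.3, robust quasi-likelihood, Benjamini-Hochberg, threshold 0.05). SE were derived from the F statistic. DESeq2 1.42.0 and limma 3.58.1 were alternatives, besides other scalings, filters and left-out libraries. Test code was tested on simulated data. By the labels the same animals stand in both tables, so animal was the block of the alternative interaction fit. Over 1074 features, deviations from group means correlated at 0.347 to 0.751 between the 2 libraries of an animal. They matched best in 9 of 10 animals. The exception was MSUS 2, at 0.347 with itself and 0.549 with another animal. The members and gene lists were chosen with earlier results of these data known. Named members are the 10 most abundant, in each table the 5 smallest p-values in each direction, the 3 rows to each side of the threshold and the 3 highest and lowest ratios between tables; the most alike features and the 6 piRNA pathway genes of highest count complete the rule. Sequences of the piRNAs are not reported here.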

Additional observations from a re-analysis of the deposited data

Results flagged for a closer look

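Within groups of 5 libraries, the gap between an end value and its nearest neighbour exceeded 0.71 of the group's range in 5 of 68 groups examined; chance gives about 1 in 20. With size selection, MSUS 8 stood above the other MSUS libraries for mmu_piR_011982 with 278 scaled CPM, for mmu_piR_003770 with 128 and for mmu_piR_008441 with 26.03. In the same table Control 9 stood below the other Control libraries for mmu_piR_011982 with 45.0 scaled CPM. Without size selection, Control 9 stood above the other Control libraries for mmu_piR_000802 with 210 scaled CPM. MSUS 8 and Control 9 also had the lowest and the highest scaling factor with size selection, 0.417 and 1.73; the part of scaling in these values was not tested.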

How the results depend on the processing

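No member was past an adjusted p of 0.05 in any edgeR fit of either table with the filter kept, except under scaling to the piRNA total. With size selection, the features called were 0 in the main test, 33 with DESeq2, 3 each with library-size scaling and scaling on miRNAs, 5040 with scaling to the piRNA total, and 48 without the filter on low counts; members among them numbered 1 with DESeq2, 2 with the piRNA total and 4 without the filter. Members higher at an unadjusted p under 0.05 numbered 11 in the main test, 20 without the 3 libraries of low tRNA share and 23 with DESeq2. They numbered 1 with library-size scaling, 25 without the filter and 0 with the piRNA total. All features higher numbered 379, 569, 341, 4, 2036 and 2 in these fits, in that order. Features tested numbered 10998, or 9015 without the 3 libraries and 61275 without the filter. Lower members numbered 0 in the main test and 3 with the piRNA total. They numbered 1 each without those 3 libraries, with library-size scaling and with scaling on miRNAs. All features lower numbered 261 in the main test, 7121 with the piRNA total and 315 without those libraries. With library-size scaling they numbered 2315, and with scaling on miRNAs 1972. Leaving out 1 library gave 0 to 2 features and 0 to 0 members called. At the unadjusted p, 6 to 52 members were higher and 0 to 1 lower, against 317 to 612 and 190 to 397 features. The median log2 fold change of members minus that of all features was 0.49 to 1.15.

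Without size selection, the features called were 0 in the main test, 2 without the 3 libraries and 1 with library-size scaling. Members higher at an unadjusted p under 0.05 numbered 1 in the main test and 0 each with library-size, miRNA and piRNA-total scaling. All features higher numbered 41, 5, 3 and 4 of 1075 in these fits, in that order. Without the filter 13 members were higher and 1 was lower, against 743 and 956 of 43436 features. The members' median minus that of all features was 0.14, against 0.42 without the 3 libraries and 0.58 without the filter. Leaving out 1 library gave 0 to 5 members higher, 0 to 0 lower, 0 to 0 called and a median difference of 0.14 to 0.28. In these fits 30 to 95 features were higher and 33 to 69 lower.

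For the difference between tables, only the fits with the replicate block pair the libraries of 1 animal. The replicate block gave 6 members lower at an unadjusted p under 0.05, against 1 in the unblocked fit. All features lower numbered 191 and 156 of 8109 in these fits. Library-size scaling gave 1 member higher and 1 lower, against 69 and 30 features. Library-size scaling with the replicate block gave 1 member higher and 3 lower, against 171 and 77 features. Leaving out 1 animal gave 0 to 2 members lower and 0 to 0 higher, against 130 to 247 and 56 to 91 features. None of these fits called a feature.

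Signs of named members turned with scaling; the cause was not tested. With size selection, library-size scaling gave log2 fold changes of -0.11 for mmu_piR_027673, -0.17 for mmu_piR_032974, -0.25 for mmu_piR_030130, -0.18 for mmu_piR_003770, -0.42 for mmu_piR_034793, -0.30 for mmu_piR_012107 and -0.50 for mmu_piR_000802. Scaling on miRNAs gave the same 7 members, in that order, -0.0024, -0.0022, -0.26, -0.058, -0.29, -0.23 and -0.45, and the piRNA total gave them -0.30, -0.29, -0.51, -0.34, -0.57, -0.45 and -0.66, with -0.11 for mmu_piR_011982. mmu_piR_034793 was at -0.038 without the 3 libraries and ran from -0.0057 to 0.62 when 1 library was left out.

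Without size selection, library-size scaling gave -0.13 for mmu_piR_000935, -0.14 for mmu_piR_034793 and -0.18 for mmu_piR_012107. Scaling on miRNAs gave these 3, in that order, -0.18, -0.25 and -0.25, and the piRNA total -0.18, -0.21 and -0.21, with -0.00058 for mmu_piR_027673. Without the 3 libraries the values were 0.33 for mmu_piR_030130, -0.10 for mmu_piR_034793, 0.34 for mmu_piR_000802 and 1.04 for mmu_piR_015668. DESeq2 gave 0.12 for mmu_piR_015668, and limma-voom 0.065 for it and 0.063 for mmu_piR_000802. With 1 library left out, the range was -0.035 to 0.35 for mmu_piR_000935, -0.48 to 0.39 for mmu_piR_030130, -0.51 to 0.19 for mmu_piR_003770, -0.061 to 0.31 for mmu_piR_034793, -0.17 to 0.25 for mmu_piR_012107, -0.22 to 0.26 for mmu_piR_000802 and -0.46 to 0.61 for mmu_piR_015668.

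A minimum mean count of 5 gave 209 members, 177 clustered, and one of 20 gave 31, 13 clustered. The summed members differed between MSUS and Control libraries by a log2 of 0.12 with and 0.04 without size selection, as a share of all counts, and moved by less than the spread between libraries when set per miRNA count or under these minimums. The low depth without size selection limits what can be said of clustered members there.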
